A study of Mus musculus with 8 samples.

Results

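The collagen genes are described here across 8 Affymetrix mouse arrays that compared FAK mutant with control embryonic tissue. FAK, focal adhesion kinase, is a cytoplasmic tyrosine kinase that acts below matrix receptors of the integrin family. A gene was counted as a collagen when its annotated symbol was Col, a number, a, a number and nothing else, and each gene was read from its brightest probe set by mean over the 8 arrays. By this rule 42 of the 18193 genes on the array were collagens, and 37 of these were among the 13543 genes bright enough to test. The 5 that did not reach the brightness filter (at least 2 of 8 arrays above an intensity of 19.4) were Col4a3, Col4a4, Col6a4, Col6a5 and Col10a1. The rule read the symbols alone, not how the genes changed, but it was set with earlier results of these data known.

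The arrays came from 4 origins, each with 1 control and 1 mutant array. The first origin was neural crest cells of the cranial region, sorted for p75 (the receptor encoded by Ngfr), from the head and thorax of embryos at E11.5, with 3 embryos pooled for each genotype. The other origins carry the labels LM, OFT and UM, which the labels do not spell out. The same day of development stands in the series title, and no sort or pooling is recorded for LM, OFT and UM. The mutant arrays are labelled FAK mutant, and the others control in the sample labels and wild type in the series title. The allele and any Cre driver are not given in the sources used here, and no label records a treatment. Comparisons between origins used the control and the mutant array of an origin as its replicates, after a common genotype difference was removed. Since nothing states that these came from separate litters or cultures, p-values measure only the spread between these arrays. The number of arrays limits the precision.

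Collagens are extracellular proteins of 3 alpha chains wound into a triple helix, and each gene encodes 1 chain. The fibrillar chains (types I, II, III, V, XI, XXIV and XXVII) build the banded fibrils that give tissue its tensile strength, and type II is the main fibril of cartilage. Type IV chains form the sheet-like network of basement membranes, and type VI forms beaded filaments between fibrils and cells. FACIT collagens (types IX, XII, XIV, XVI, XIX, XX and XXII) sit on the surface of fibrils. Types XIII, XVII, XXIII and XXV span the plasma membrane, and types XV and XVIII (multiplexins) lie in or near basement membranes. Cranial neural crest cells give rise to much of the mesenchyme of the face, whose matrix these genes make.

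The stretches upstream of the gene starts are shown for 3 groups of chains whose values are described next: the type IV pair on chromosome X, type IX, and type VI. They come from RefSeq's annotation of GRCm38.p6, run 5′ to 3′ on the strand of the gene, and end at the edge of the annotated gene, apart from the second start of Col9a1, which lies inside the gene. Of the 42 collagen genes 33 had an entry, with 36 windows of 250 bases. Capitals mark matches, on either strand and within the printed stretch, to any of 3 motifs. The GC box was searched as GGGCGG, the CCAAT box by the letters of its name, and the TATA box, which helps to position the polymerase, as TATAAA.
Col4a5, chrX:141475169-141475369, plus strand: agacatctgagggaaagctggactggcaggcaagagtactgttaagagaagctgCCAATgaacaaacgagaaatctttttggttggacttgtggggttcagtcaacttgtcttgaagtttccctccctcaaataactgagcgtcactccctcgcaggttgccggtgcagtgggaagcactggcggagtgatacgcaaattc
Col4a6, chrX:141474096-141474326, minus strand: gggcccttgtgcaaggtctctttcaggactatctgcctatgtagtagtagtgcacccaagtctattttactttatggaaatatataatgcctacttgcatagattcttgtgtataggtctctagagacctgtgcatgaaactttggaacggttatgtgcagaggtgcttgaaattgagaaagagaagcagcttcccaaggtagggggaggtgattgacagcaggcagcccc
Col9a1 first start, chr1:24177360-24177588, plus strand: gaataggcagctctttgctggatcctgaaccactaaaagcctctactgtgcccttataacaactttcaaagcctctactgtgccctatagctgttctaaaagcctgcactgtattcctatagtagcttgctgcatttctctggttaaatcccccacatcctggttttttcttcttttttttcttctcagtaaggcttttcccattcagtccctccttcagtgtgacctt
Col9a1 second start, chr1:24194953-24195202, plus strand: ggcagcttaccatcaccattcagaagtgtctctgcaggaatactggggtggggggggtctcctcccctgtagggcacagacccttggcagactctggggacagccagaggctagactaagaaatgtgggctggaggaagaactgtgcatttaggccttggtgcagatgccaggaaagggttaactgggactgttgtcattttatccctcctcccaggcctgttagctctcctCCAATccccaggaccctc
Col9a2, chr4:121039316-121039565, plus strand: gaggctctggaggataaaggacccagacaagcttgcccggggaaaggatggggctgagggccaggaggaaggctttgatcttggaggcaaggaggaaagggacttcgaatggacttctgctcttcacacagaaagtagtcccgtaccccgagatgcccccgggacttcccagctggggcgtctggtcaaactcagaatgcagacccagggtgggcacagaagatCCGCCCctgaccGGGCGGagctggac
Col6a1, chr10:76726045-76726294, minus strand: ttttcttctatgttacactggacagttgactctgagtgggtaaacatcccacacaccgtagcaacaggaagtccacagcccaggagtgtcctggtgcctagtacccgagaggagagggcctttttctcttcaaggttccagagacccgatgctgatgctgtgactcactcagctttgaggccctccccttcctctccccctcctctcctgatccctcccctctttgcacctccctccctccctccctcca
Col6a3, chr1:90844002-90844221, minus strand: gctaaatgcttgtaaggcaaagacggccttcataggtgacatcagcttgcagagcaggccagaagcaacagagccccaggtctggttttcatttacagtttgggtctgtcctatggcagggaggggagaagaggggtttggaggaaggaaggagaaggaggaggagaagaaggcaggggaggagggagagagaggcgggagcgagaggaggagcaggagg
The starts of Col4a6 and Col4a5 lay 1342 bases apart and pointed away from each other. Col9a1 is known to make a long form from its upstream start and a short form from its downstream start. These starts lay 17593 bases apart, and the probe sets of the array were not assigned to one or the other. A GC box was in 21 of the 36 collagen windows (58.3%) against 32.7% of all 32851 windows of that length, a CCAAT box in 13 (36.1%) against 33.8%, and a TATA box in 5 (13.9%) against 12.4%. Among the 13 windows of genes higher in OFT than in LM and UM, 9 held a GC box, 7 a CCAAT box and 0 a TATA box. Among the 24 windows of genes higher in the p75-sorted arrays than in LM and UM, these counts were 16, 10 and 2. A match is a run of letters and not a shown binding site.

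The arrays were on a common scale, with median log2 values from 5.95 to 6.08 over all probe sets, but the p75-sorted pair stood apart. Its ratio of the 3′ to the 5′ Gapdh control probe set, a measure of RNA integrity and amplification, was 2.82 in the control and 4.91 in the mutant, against 0.700 to 0.986 in the other 6 arrays. For Actb that ratio did not set the pair apart, at 1.57 and 1.65 beside 1.42 to 1.94 elsewhere. Xist, which is transcribed from the inactive X chromosome of female cells, was at 21.02 in the p75-sorted control, 2247 in the p75-sorted mutant and 4368 to 5032 elsewhere, so the arrays differ in the sex makeup of their embryos. Marker lists separated the origins: crest and glial markers summed to 4867 to 6106 in the p75-sorted arrays and to 461 to 816 elsewhere, and all 5 with a probe set were higher than in LM and UM. The sorted arrays were also higher than LM and UM in all 5 neuron markers (summed intensity 2270 to 3973). The same held for all 5 cardiac muscle markers (316 to 362) and 3 of 4 skeletal muscle markers, while all 5 epithelial markers were lower. In OFT all 5 cardiac muscle markers (summed intensity 12210 to 14080, against 132 to 172 in LM and 15.95 to 42.8 in UM), all 4 smooth muscle markers and all 5 endothelial markers were higher than in LM and UM. Fewer cells of a type and less RNA per cell cannot be told apart in such bulk samples, and sorting, pooling and RNA handling cannot be told apart from the p75-sorted origin.

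**Figure D1:**
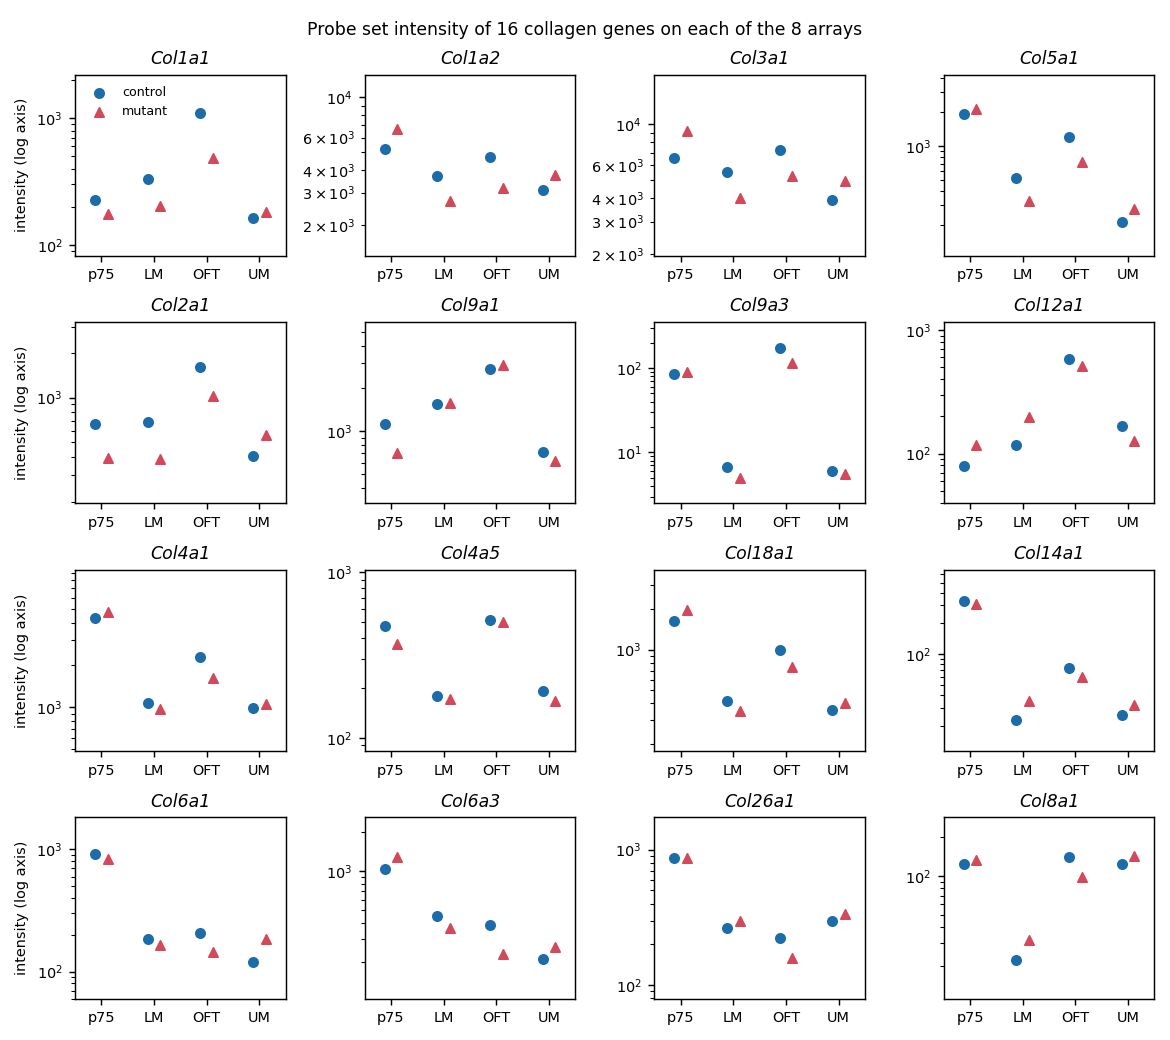
Probe set intensity on a log axis (1 panel a gene, each with its own range) for 16 collagen genes on the 8 arrays, with the 4 origins along the horizontal axis, circles for control and triangles for mutant arrays. Col6a1 and Col14a1 have their highest points in the p75-sorted arrays (912 and 828, 333 and 310.4), and Col1a1 and Col12a1 in OFT (1109 and 489, 577 and 512). A second probe set of Col1a1, not drawn, was higher in the p75-sorted arrays than in OFT, by 0.73.

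The first comparison asked how the OFT arrays differed from the other unsorted origins. In OFT 17 of 37 collagens were higher than in LM and UM and 2 were lower, at an adjusted p under 0.05 by limma. Of all tested genes 11.3% were higher and 3.88% lower. The median difference was 0.44 over the collagens and 0.01 over all genes, on the scale of log2(intensity + 32), which holds for every difference given here. The higher genes included all 4 tested type IV chains, 5 of 9 FACIT chains (all 3 of type IX, with XII and XIV) and 5 of 11 fibrillar chains, while 0 of 3 type VI chains passed.

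Among the FACIT chains, Col9a3, a chain of type IX collagen on the surface of cartilage-type fibrils, read 175 (control) and 116 (mutant) in OFT. It read 6.69 and 4.97 in the LM control and mutant and 6.0 and 5.60 in UM. Both OFT arrays were thus far above all 4 others, where the gene was near the bottom of the scale, and the difference was 2.21 ± 0.16 (moderated SE, 2 against 4 arrays, adjusted p = 2.05e-06 by limma). Since the low side is so dim, this size depends on the added constant: it was 4.40 with 1 in place of 32, and 1.13 when the gene's probe sets were averaged. Col12a1, which encodes the type XII chain of tendon and other dense tissue, read 577 and 512 in OFT, 117 and 197 in LM and 168 and 127 in UM. Its OFT arrays lay above the rest, by 1.66 ± 0.20 (adjusted p = 0.000123, limma), and the difference was 0.57 with the probe sets averaged. Col9a1 read 2733 and 2926 in OFT, 1565 and 1576 in LM and 711 and 619 in UM, with no overlap between these origins, and was higher in OFT by 1.44 ± 0.18 (adjusted p = 0.000152, limma). The third type IX chain, Col9a2, was higher by 0.96, and Col14a1, a FACIT of soft connective tissue, by 0.70.

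Among the fibrillar chains, Col1a1 (the alpha 1 chain of type I, the main fibril of bone, skin and tendon) read 1109 (control) and 489 (mutant) in OFT. It read 330.0 and 202 in LM and 164 and 180.2 in UM. The OFT arrays lay above these but also apart from each other, and the difference was 1.66 ± 0.22 (adjusted p = 0.000226, limma), against 0.65 by a second probe set. Its partner in the same helix, Col1a2, read 4698 and 3168 in OFT against 2701 to 3723 in LM and UM, which overlap, and its difference was 0.24 ± 0.21 (adjusted p = 0.487, limma). Col2a1, the chain of cartilage fibrils, read 1609 and 1028 in OFT and 389 to 686 in LM and UM, higher by 1.32 ± 0.23 (adjusted p = 0.00186, limma), a call lost with a constant of 1 (1.38). Col5a1, whose type V chain starts the assembly of type I fibrils, read 1199 and 726 in OFT and 214 to 527 in the others, higher by 1.45 ± 0.22 (adjusted p = 0.000716, limma). Col11a1 was higher by 1.15 and Col5a2 by 0.86. Col3a1, the type III chain of elastic tissues and vessels, did not pass, at 0.44 ± 0.21 (adjusted p = 0.195, limma).

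Cartilage markers moved beside these chains: their summed intensity was 1329 to 1387 in OFT, 480 to 491 in LM and 457 to 541 in UM, and 3 of 5 tested were higher. Sox9, the transcription factor of cartilage collagen genes, was higher by 0.74 and is in that list. The sum in OFT lay mostly in Sox9 (619 and 591) and Hapln1 (577 and 696). Hapln1 read 57.4 to 109 in LM and UM. Matn4 overlapped, at 18.2 and 34.4 in OFT and 17.2 to 34.3 in LM and UM. Acan and Matn1, matrix proteins that define cartilage, were low in OFT, with Acan at 31.7 and 15.5 and Matn1 at 8.88 and 5.04. Smooth muscle markers summed to 5616 to 6122 in OFT, against 110.1 to 947 in LM and UM. The part of these cell types in the collagen differences was not tested.

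In the basement membrane group, Col4a5 read 518 and 502 in OFT, 179 and 171 in LM and 191 and 166 in UM. It was higher in OFT by 1.38 ± 0.15 (adjusted p = 5.54e-05, limma), with both OFT arrays clear of the others. Its neighbour Col4a6, whose start faces away from that of Col4a5 in the stretches printed above, read 83.9 and 85.6 in OFT and 18.9 to 54.5 in LM and UM, higher by 0.78. Both are on chromosome X. The ubiquitous type IV pair Col4a1 and Col4a2 was higher by 0.89 and 0.79, and Col18a1, the basement membrane collagen from which endostatin is cut, by 1.12. Endothelial markers, of cells that rest on such membranes, summed to 1001 to 1260 in OFT and 460 to 522 in LM and UM, and their part in these values was not tested.

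Of the remaining classes, the transmembrane chain Col25a1 read 512 and 559.7 in OFT and 157 to 283 in LM and UM, higher by 1.20 ± 0.16 (adjusted p = 0.000324, limma). Its direction turns with the probe set read: a dimmer one gave -0.21, and the mean of both 0.50. Col8a1, a short chain collagen of vessel walls and eye membranes, was higher by 0.61, but its OFT readings of 141 and 98.3 overlapped UM's 124 and 141. Lower in OFT was Col17a1, the hemidesmosome collagen of basal epithelium, at 3.39 and 0.596 against 25.1 to 64.7 in LM and UM. The difference was -1.04 ± 0.19 (adjusted p = 0.00267, limma), and -3.83 with 1 as the added constant, since the OFT readings are near 0. Without the OFT mutant it was -0.77 and did not pass. Krt14, a keratin of basal epithelium, was likewise at 2.51 and 2.09 in OFT and at 51.7 to 123 in LM and UM, while the summed epithelial markers were 1537 to 1564 in OFT, between LM (1005 to 1062) and UM (1746 to 2118).

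Col26a1 was lower in OFT, at -0.58 ± 0.17 (adjusted p = 0.0353, limma). This call was lost without either p75-sorted array (-0.58), the LM mutant (-0.52), the OFT control (-0.85), the OFT mutant (-0.32) or the UM mutant (-0.52), with constants of 1 (-0.66) or 8 (-0.64), with no filter on low values or with the arrays of OFT, LM and UM alone (-0.58 in both). The type VI chains Col6a1, Col6a2 and Col6a3 differed by 0.09 ± 0.19, -0.40 ± 0.15 and -0.03 ± 0.20, none past the threshold. The count of calls leaned on the OFT control: without that array 7 of the 19 remained past the threshold (Col9a3, Col4a5, Col9a1, Col12a1, Col25a1, Col1a1 and, lower, Col17a1), while the number over all genes went from 2060 to 624. Col2a1 and Col5a1 were among those lost, at 1.18 and 1.13.

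**Figure D2:**
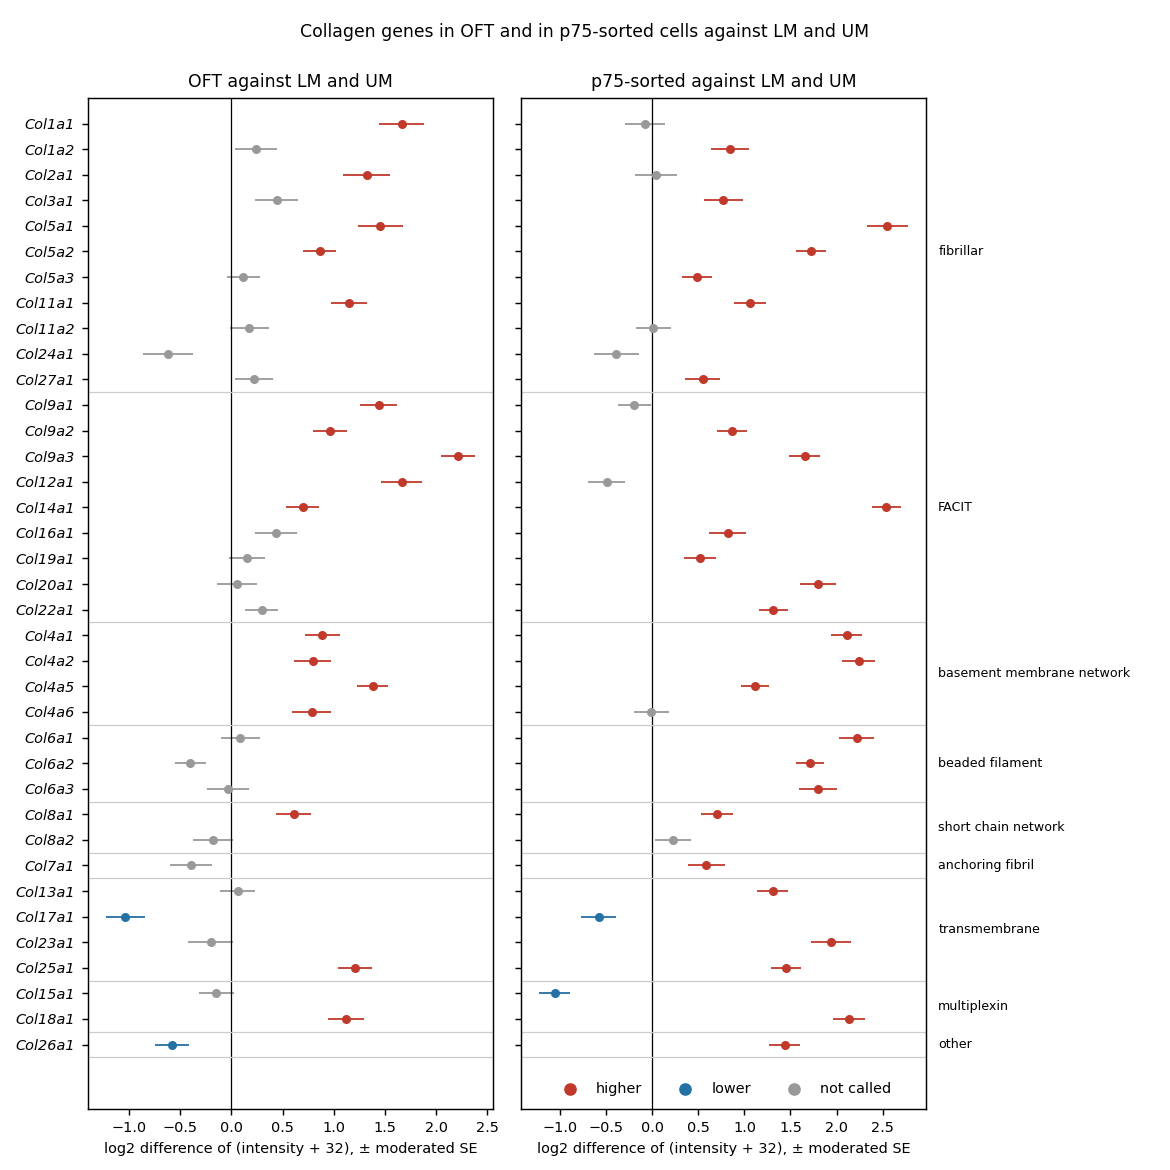
Log2 difference of (intensity + 32) for the 37 tested collagen genes by class, OFT against LM and UM on the left and p75-sorted against LM and UM on the right, with bars of 1 moderated SE and colour for genes called higher, lower or not called at an adjusted p under 0.05 by limma. Both panels share the LM and UM arrays, and the type VI chains lie between -0.40 and 0.09 on the left and between 1.71 and 2.22 on the right.

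From a list of 75 genes for collagen folding, secretion, cleavage, crosslinking, binding, sensing, breakdown and transcription, 61 were tested, and 33 were higher and 3 lower in OFT than in LM and UM, beside 11.3% and 3.88% of all genes. The folding and modification genes gave 14 of 18 higher (median 0.69), among them Sparc, a collagen chaperone of the matrix and not an enzyme, by 1.84. Crosslinking enzymes gave 4 of 4, led by Tgm2 (transglutaminase) by 2.85 ± 0.15 (adjusted p = 1.25e-07, limma) and Loxl1, a lysyl oxidase, by 1.65. Lower were the fibril-spacing proteoglycans Lum (-1.04) and Kera (-0.95) and the tendon transcription factor Mkx (-0.87).

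LM and UM differed from each other in few collagens. Of 37, 1 was higher in LM and 1 lower, against 0.738% and 0.82% of all genes. The gene higher in LM was Col9a1, whose readings of 1565 and 1576 in LM and 711 and 619 in UM did not overlap, by 1.20 ± 0.21 (adjusted p = 0.00939, limma). The gene lower in LM was Col8a1, with 22.3 and 31.9 in LM and 124 and 141 in UM, a difference of -1.48 ± 0.20 (adjusted p = 0.00161, limma). Col8a1 did not pass with its probe sets averaged (-0.71) or with a constant of 1 (-2.27). Col9a1 did not pass without the LM mutant (1.07), the UM control (1.21) or the UM mutant (1.20), or with constants of 1 (1.24) or 8 (1.23). The other 35 did not pass, the largest of them Col23a1, a transmembrane collagen, at 0.90 ± 0.25 (adjusted p = 0.154, limma), and Col6a3 at 0.71 ± 0.24 (adjusted p = 0.282, limma). Of the 61 pathway genes, Scx, a tendon transcription factor, was higher in LM (0.89) and Fap, a protease of activated fibroblasts, lower (-1.16).

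In the p75-sorted cells most collagens were higher than in LM and UM. Here 27 of 37 were higher and 2 lower against 29.4% and 18.7% of all genes. The median was 0.86 over the collagens and 0.09 over all genes. All 3 type VI chains, 3 of 4 type IV chains, 7 of 11 fibrillar and 7 of 9 FACIT chains were higher. Of these, Col5a3, Col20a1 and Col22a1 passed the brightness filter only through the sorted arrays, where they were high, so their calls are no support. Outside those arrays only the OFT control read above 19.4 for them.

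All 3 type VI chains stood above the unsorted origins. Col6a1 read 912 and 828 in the p75-sorted control and mutant, 186 and 164 in LM and 119.9 and 184 in UM, higher by 2.22 ± 0.19 (adjusted p = 3.98e-06, limma). Col6a3 read 1042 and 1286 against 210.3 to 449, higher by 1.80, and Col6a2 1081 and 1186 against 306 to 341, higher by 1.71. The sorted readings overlapped those of LM and UM for none of the 3 chains. This was not particular to type VI, since 27 of the 37 tested collagens had no overlap in this contrast. The share over all genes was not counted, so that count is not read as a trait of collagens. In the upstream stretches printed above for Col6a1 and Col6a3, 0 matches to the 3 motifs were found, while the 2 windows of Col6a2, not printed, held 3 and 1 GC boxes.

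Of the basement membrane chains, Col4a1 read 4279 and 4749 in the sorted arrays and 972 to 1078 in LM and UM, higher by 2.11 ± 0.17 (adjusted p = 2.52e-06, limma). Col4a2, its partner in the same helix, read 1827 and 1603 against 290.0 to 438, higher by 2.24 ± 0.18 (adjusted p = 2.57e-06, limma), and Col18a1 read 1624 and 1959 against 353 to 418, higher by 2.14 ± 0.17 (adjusted p = 2.89e-06, limma). No sorted reading of these 3 genes overlapped the unsorted ones. Endothelial markers ran the other way, summing to 195 to 207 in the sorted arrays, with 0 of 5 higher and 3 lower than in LM and UM. Col4a5 was higher by 1.11, whereas Col4a6, at 39.0 and 31.9, differed by -0.01. Dimmer probe sets past the brightness filter gave 0.21 for Col4a5 and 0.62 for Col4a6, so this order turns on the probe set read. Col15a1, the other multiplexin, read 30.6 and 22.6 against 75.3 to 110.2 and was lower, at -1.06 ± 0.17 (adjusted p = 0.000318, limma), and at -1.73 with a constant of 1.

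Among fibrillar chains, Col5a1 read 1922 and 2157 in the sorted arrays and 214 to 527 in LM and UM, higher by 2.55 ± 0.22 (adjusted p = 4.22e-06, limma). With the probe sets averaged the difference was 1.61. Col5a2 was higher by 1.72, Col11a1 by 1.06, Col1a2 by 0.84, Col3a1 by 0.77, Col27a1 by 0.54 and Col5a3 by 0.48. Col1a1 and Col2a1 did not pass, at -0.08 ± 0.22 and 0.04 ± 0.23. A second probe set of Col1a1 gave 1.39 in the same contrast, so its value here turns on the probe set read. Crest and glial markers were 5 of 5 higher, neuron markers 5 of 5 higher and mesenchyme markers 1 higher and 4 lower of 5 in this contrast. The part of these cell types in the collagen values was not tested.

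Of the FACIT and transmembrane chains, Col14a1 read 333 and 310.4 in the sorted arrays and 22.8 to 35.2 in LM and UM, with no overlap, by 2.54 ± 0.16 (adjusted p = 4.94e-07, limma). This was 1.41 with the probe sets averaged. Col20a1 read 126 and 106 against 1.54 to 15.1, a difference of 1.80 ± 0.20, and of 3.62 with 1 as the added constant. As said above, Col20a1 entered the test only through its high sorted readings, so its call is no support. Col23a1 read 631 and 661 against 83.9 to 261, by 1.94 ± 0.22 (adjusted p = 2.83e-05, limma). Col9a3 (1.65), Col25a1 (1.45), Col22a1 (1.31), Col13a1 (1.31), Col9a2 (0.86), Col16a1 (0.82) and Col19a1 (0.51) were also higher, as were Col26a1 (1.43), Col8a1 (0.70) and Col7a1 (0.58), which encodes the anchoring fibril of skin. Dimmer probe sets past the brightness filter gave -0.16 for Col25a1, -0.14 for Col22a1, -0.31 for Col19a1, 0.12 for Col9a3 and 0.02 for Col26a1, so these values turn on the probe set read. Col9a1 and Col12a1 did not pass, at -0.20 ± 0.18 and -0.50 ± 0.20.

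Col17a1 read 7.98 and 21.9 in the sorted arrays, below all 4 readings of LM and UM, and was lower, at -0.58 ± 0.19 (adjusted p = 0.0227, limma). The call was lost without the p75-sorted control (-0.49), the p75-sorted mutant (-0.68) or the UM mutant (-0.43), and with a constant of 1 (-1.39). The 5 epithelial markers were all lower in the same contrast, with sums of 358 to 421 in the sorted arrays and 1005 to 2118 in LM and UM.

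The pathway genes gave 35 higher and 6 lower of 61, beside 29.4% and 18.7% of all genes. All 8 tested genes of the breakdown group, which holds proteases and the inhibitors Timp1, Timp2 and Timp3, were higher. They were led by the gelatinase Mmp2 (2.64 ± 0.19, adjusted p = 1.22e-06, limma) and the protease inhibitor Timp3 (2.33). The folding and modification genes gave 11 of 18 higher, and Tgm2 was higher by 2.35. Of the 11, Colgalt2 (35.7 and 40.2 in the sorted arrays) passed the brightness filter only through those arrays, so its call is no support. Lower were Ogn, a small leucine-rich proteoglycan (-1.55), Sox9 (-0.98) and Itgb1, the beta chain of the collagen-binding integrins (-0.96).

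Set directly against OFT, the sorted cells had 15 collagens higher and 7 lower, where 19.2% and 15.4% of all genes were called. The higher ones held all 3 type VI chains, and the lower ones were the fibrillar chains Col1a1 and Col2a1, the FACIT chains Col9a1, Col9a3 and Col12a1, and Col15a1 and Col4a6. Col6a1 read 912 and 828 in the sorted arrays and 207 and 145 in OFT, a difference of 2.13 ± 0.22 (adjusted p = 3.14e-05, limma). Col6a2 differed by 2.11 ± 0.17 (adjusted p = 5.37e-06, limma) and Col6a3 by 1.83 ± 0.24 (adjusted p = 0.000147, limma). Of the other classes, Col23a1, at 174 and 82.9 in OFT, was higher in the sorted arrays by 2.14, Col26a1 by 2.02 (1.30 with the probe sets averaged), Col14a1 by 1.84, Col20a1 by 1.75 (3.41 with a constant of 1, which did not pass) and Col4a2 by 1.45. Col13a1 (1.25), Col4a1 (1.23), Col5a1 (1.10), Col18a1 (1.02), Col22a1 (1.02), Col7a1 (0.98) and Col5a2 (0.86) followed. Of these 15, Col20a1 and Col22a1 passed the brightness filter only through the sorted arrays, so their calls are no support. For Col5a1 the direction turns with the probe set read, since a dimmer one gave -0.83.

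Col12a1 was the lowest in the sorted cells relative to OFT, with 78.9 and 117 against 577 and 512 and a difference of -2.16 ± 0.23 (adjusted p = 4.44e-05, limma). With its probe sets averaged this was -0.85. Col9a1, at 1127 and 702 against 2733 and 2926, was lower, at -1.63 ± 0.21 (adjusted p = 0.000128, limma), and Col2a1, at 664 and 390.4 against 1609 and 1028, was at -1.28 ± 0.26 (adjusted p = 0.00312, limma). Col2a1 did not pass without the p75-sorted mutant (-1.08) or with a constant of 1 (-1.33). No reading of these 3 genes overlapped between the origins. This was not particular to them, since it held for 30 of the 37 tested collagens in this contrast. The share over all genes was not counted, so that count is not read as a trait of collagens.

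Col1a1, at 224 and 174 against 1109 and 489, was lower, at -1.75 ± 0.25 (adjusted p = 0.000316, limma), but its second probe set gave 0.73 and the mean of both -0.51, which did not pass. Col15a1 was lower, at -0.91 (-1.53 with a constant of 1), a call lost without the OFT control (-0.72). Col4a6 (-0.79) and Col9a3 (-0.56) were lower too, and both calls were lost when single arrays were left out. For Col4a6 these were the p75-sorted mutant (-0.60), the OFT control (-0.71) or the OFT mutant (-0.88), and a constant of 1 (-1.24) did the same. Col9a3 lost its call when any 1 of the 4 arrays compared was left out, at -0.32 to -0.79. Of the 61 pathway genes 18 were higher and 14 lower, beside 19.2% and 15.4% of all genes, with Lum (2.03), Timp3 (1.69) and Mmp2 (1.65) the highest and Sox9 (-1.72), Itgb1 (-1.64) and Itga1, the alpha 1 integrin chain (-1.17), the lowest.

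**Figure D3:**
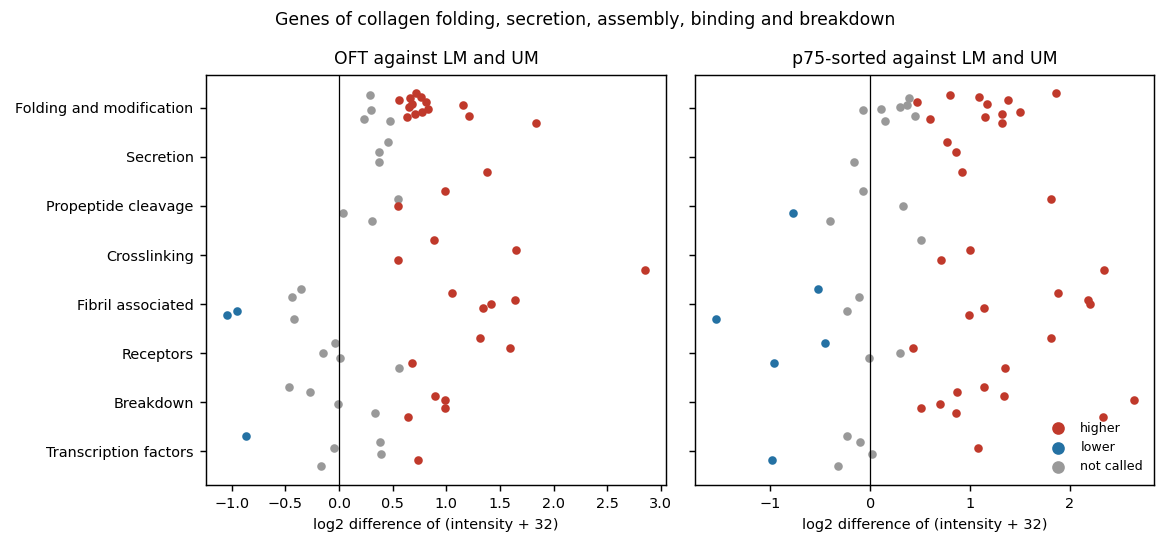
Log2 difference of (intensity + 32) for the 61 tested genes of the collagen pathway list, 1 point a gene, by role, in OFT against LM and UM (left) and p75-sorted against LM and UM (right), coloured by the call. The folding group has 14 of 18 points called higher on the left and 11 of 18 on the right, and the breakdown group 8 of 8 on the right.

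The contrasts of OFT and of the p75-sorted cells share the LM and UM arrays as their base, so their values are set side by side with no test between them. Among the network chains, Col4a1 was at 0.89 in OFT and 2.11 in the sorted cells, Col4a2 at 0.79 and 2.24, and Col18a1 at 1.12 and 2.14. Col4a5 was at 1.38 and 1.11, and its neighbour Col4a6 at 0.78 and -0.01. Their dimmer probe sets gave 1.04 and 0.21 for Col4a5 and 0.865 and 0.62 for Col4a6. By the brightest probe sets type IX split by chain, with Col9a1 at 1.44 and -0.20, Col9a2 at 0.96 and 0.86 and Col9a3 at 2.21 and 1.65. A dimmer probe set of Col9a3 gave 1.24 and 0.12, so the place of this chain turns on the probe set read. Col12a1 was at 1.66 and -0.50, and Col2a1 at 1.32 and 0.04, and both passed as lower in the sorted cells when these were set directly against OFT. Col6a1 was at 0.09 and 2.22, Col13a1 at 0.06 and 1.31, and Col23a1 at -0.20 and 1.94, and these passed as higher in that direct contrast. Col8a2, Col11a2 and Col24a1 passed in no contrast of origins.

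No collagen passed the test between FAK mutants and controls. Over the 4 origin-matched pairs 0 of 37 passed by limma, as did 0 of all 13543 genes (0%), and 3 collagens and 410 genes had an unadjusted p under 0.05. The median difference was -0.09 over the collagens and -0.01 over all genes, and 27 of 37 collagens were below 0, as were 7377 of all 13543 genes. Col4a5 was the member with the same direction in all 4 pairs, at -0.34, -0.06, -0.04 and -0.17 in p75-sorted cells, LM, OFT and UM and -0.15 ± 0.12 in the fit (adjusted p = 1, limma). It is X-linked, and in the p75-sorted pair, which gave its widest gap, Xist was 21.02 and 2247. In the other pairs, where Col4a5 was also lower in the mutant, Xist read 4368 to 5032. The part of embryo sex in these differences was not tested. Outside the rule for naming genes, the widest mean differences were those of Col1a1 (-0.49 ± 0.18) and Col2a1 (-0.42 ± 0.19), each with 3 of 4 pairs lower, and were chosen after their values were seen.

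Within single pairs, which have no replicate and so no test, the collagens moved in different directions. In the OFT pair the mutant was lower in 32 of 37 collagens (86.5%) against 57.1% of all genes, with medians of -0.41 and -0.05. In UM it was lower in 12 of 37 (32.4%) against 43.2%, with medians of 0.15 and 0.04. LM gave 23 of 37 lower (62.2%) against 55%, and the p75-sorted pair 14 of 37 (37.8%) against 52.3%. At least 2-fold between mutant and control were 1 collagen in OFT (Col1a1, 489 in the mutant and 1109 in the control, -1.13) and 0 in the other pairs. Of all genes 0.199% passed that fold in OFT, 0.406% in the p75-sorted pair, 0.569% in LM and 0.222% in UM.

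By class, the fibrillar chains had medians of 0.04, -0.46, -0.49 and 0.26 in the p75-sorted, LM, OFT and UM pairs. Col1a2 gave 0.35, -0.44, -0.56 and 0.27 in these pairs, Col3a1 0.48, -0.46, -0.46 and 0.33, and Col5a1 0.16, -0.64, -0.70 and 0.34, each lower in the mutant in LM and OFT and higher in the other pairs. Col1a1, at -0.32, -0.63, -1.13 and 0.12, and Col2a1, at -0.72, -0.77, -0.63 and 0.44, were lower in the p75-sorted mutant too. All 3 type VI chains were lower in the OFT mutant and higher in the UM mutant, with Col6a3 at -0.67 and 0.29 and Col6a1 at -0.43 and 0.51. Col9a1 was at -0.66 in the p75-sorted pair and within 0.19 of 0 in the others. Marker sums also differed within the OFT pair. From control to mutant they went from 2244 to 1250 for neurons, 5682 to 4817 for mesenchyme, 1260 to 1001 for endothelium, 5616 to 6122 for smooth muscle and 12210 to 14080 for cardiac muscle. In the UM pair the neuron sum went from 1174 to 723 and the mesenchyme sum from 6688 to 6855. The OFT arrays also differed in Eif2s3y, a gene of the Y chromosome, with 6.20 in the control and 151 in the mutant, and the part of these cell types and of embryo sex in the collagen values was not tested. None of the 61 pathway genes passed between mutants and controls.

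**Figure D4:**
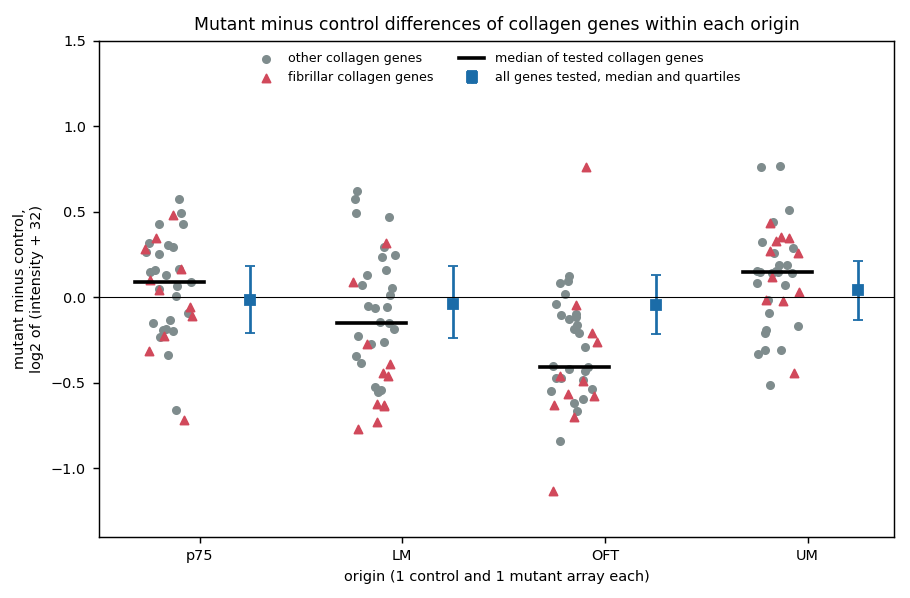
Mutant minus control on the log2(intensity + 32) scale in each origin, 1 point for each of the 37 tested collagen genes (triangles for fibrillar chains), with the collagen median as a bar and the median and quartiles of all tested genes beside it. The collagen medians are 0.09 in the p75-sorted pair, -0.15 in LM, -0.41 in OFT and 0.15 in UM.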

How the data were processed

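RNA was measured on 8 Affymetrix arrays (4 origins, control and FAK mutant). The authors deposited a table of linear intensity values for 45101 probe sets. No label names the software behind it (not given in the sources used here), and every array's trimmed mean lay between 149.954 and 149.961, as after scaling. Of the probe sets 34945 carry 1 gene in GEO's platform annotation and 932 carry several, and the latter were not used. Ptk2, the gene of FAK, is not analysed here, so the mutant labels were not checked against the targeted gene.

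From the deposited intensity, log2(intensity + 32) was computed and fitted with limma 3.58.1 in R 4.3.3 on all 8 arrays, with terms for origin and genotype (3 residual degrees of freedom) and Benjamini-Hochberg adjustment over 13543 genes. Genes entered the test with 2 or more of 8 arrays over the 40th percentile of the values, 64 control probe sets aside. Errors are moderated SEs. Calls have an adjusted p under 0.05, and the scripts were tested on simulated data. In each contrast of origins all called members are named. Up to 8 in each direction, the most changed, were followed through the alternatives listed below. Between genotypes, members of 1 sign in all 4 pairs are named. Members, lists and tests were chosen with earlier results of these data known. Alternatives were other constants, filters, probe set rules, scaling, variance priors, terms and array sets.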

Additional observations from a re-analysis of the deposited data

Results flagged for a closer look

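Col24a1, a fibrillar chain, moved in opposite directions in the pairs of OFT and LM: mutant minus control was 0.76 in OFT and -0.73 in LM, each from 1 array a genotype. Its intensities were 7.10 in the OFT control, 34.2 in the OFT mutant, 82.3 in the LM control and 36.9 in the LM mutant. This difference between origins was not tested.

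The median mutant minus control difference over the 37 tested collagen genes was -0.41 in OFT and 0.15 in UM. The same medians over all tested genes were -0.05 and 0.04. With 1 pair an origin, this difference was not tested either, and the members share their arrays.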

How the results depend on the processing

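The count of collagens called in OFT against LM and UM was 19, from 13 to 20 under other settings and from 7 to 19 when 1 array was left out, the lowest without the OFT control. Over all genes that contrast called 2060 genes, against 999 with a constant of 1, 624 without the OFT control and 1007 without the OFT mutant. LM against UM had 2 calls, against 0 with a constant of 1, 1 with a constant of 8, 1 with probe sets averaged by gene, and 1 to 2 when 1 array was left out. The p75-sorted cells had 29 calls against LM and UM (20 to 30 with 1 array left out, 23 to 29 otherwise) and 22 against OFT (15 to 23 and 16 to 23). Mutant against control gave 0 calls in all 22 alternatives. No paired analysis by replicate number was possible because the labels number 1 array per group, so pairs were formed by origin, and without the origin term the count was also 0. Only the most changed called collagens, up to 8 in each direction of a contrast of origins, and Col4a5 between genotypes were followed one by one through the alternatives. Of their values none changed sign, and 14 of 189, 7 of 38, 4 of 188 and 17 of 284 were no longer past the threshold in the contrasts in the order given. The other called collagens were not followed in this way. The causes were not tested. An alternative that leaves out 1 array leaves its origin with a single array, which is assumed to vary like the others. Dim readings, such as those of Col9a3 in LM and UM or Col17a1 in OFT, limit how large a difference can be stated.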

Other observations

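The 42 collagen genes had 82 probe sets. Of the 36 further probe sets of tested members, 29 passed the brightness filter. Against the brightest probe set of the same gene, those of called genes had the same sign in 15 of 16 cases in OFT against LM and UM (the exception was Col25a1), in 2 of 2 in LM against UM, in 22 of 25 in p75-sorted against LM and UM (exceptions Col19a1, Col22a1 and Col25a1) and in 18 of 20 in p75-sorted against OFT (exceptions Col1a1 and Col5a1). The size was smaller in 15, 2, 20 and 16 of these cases. For Col5a1 a dimmer probe set gave -0.83 in p75-sorted against OFT, where the brightest gave 1.10 and the other 0.63.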
